A study of Homo sapiens with 8 samples.

Results

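Open chromatin was examined in hg19 windows around 5 genes of epithelial identity, CDH1, ESRP1, EPCAM, GRHL2 and ELF3, in ATAC-seq peak lists of H1650, a line derived from human non-small cell lung cancer. ATAC-seq inserts adapters into accessible DNA with a transposase, so that peaks mark open chromatin. The windows were chr16:68.75-68.89 Mb for CDH1, chr8:95.62-95.75 Mb for ESRP1, chr2:47.56-47.64 Mb for EPCAM, chr8:102.45-102.71 Mb for GRHL2 and chr1:201.95-202.01 Mb for ELF3. All peaks deposited for the 8 libraries were joined into regions where they touched or overlapped, and every region that reached into a window was taken. This gave 41 of the 46665 regions of the series, 7 at CDH1, 6 at ESRP1, 6 at EPCAM, 17 at GRHL2 and 5 at ELF3, over 670 kb in all. Regions are numbered from left to right in each window.

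The 8 libraries formed 4 groups of 2. In the siMena11a group, H1650 cells were transfected with a mix of 3 siRNAs against exon 11a of ENAH, the exon that marks the epithelial isoform of the actin regulator hMENA. The siMena group received a pool of siRNAs against ENAH as a whole, the siControl group a non-targeting pool, and the untreated group no siRNA. All siRNA was given at 20 nmol/L in a lipid reagent, and all groups are the same single cell line. The labels do not say whether replicates came from separate cultures, and ATAC-seq does not read mRNA, so the knockdown itself could not be checked here.

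E-cadherin, the product of CDH1, joins epithelial cells at adherens junctions, and EPCAM is a surface adhesion protein of epithelia and of many carcinomas. GRHL2 is a grainyhead transcription factor that activates junction genes, CDH1 among them, and ELF3 is an ETS-family transcription factor of epithelial cells. ESRP1 is an RNA-binding protein that directs epithelial splicing, and inclusion of exon 11a in ENAH mRNA is one of its known outcomes, which ties this set of genes to the isoform silenced in the study. Loss of E-cadherin and of ESRP1 is a textbook feature of epithelial-mesenchymal transition, in which repressors such as SNAI1 and ZEB1 bind E-box sequences.

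Among the 5 genes, the RefSeq promoter table used here held ELF3 alone. Its sequence is shown because the E-box and TATA letters of an epithelial promoter can be seen in it. The 250 bases before the ELF3 start, on the plus strand of GRCh38.p14 (chr1:202010337-202010586), are given below with one E-box CACCTG and one TATA box TATAAA in capitals.
ELF3: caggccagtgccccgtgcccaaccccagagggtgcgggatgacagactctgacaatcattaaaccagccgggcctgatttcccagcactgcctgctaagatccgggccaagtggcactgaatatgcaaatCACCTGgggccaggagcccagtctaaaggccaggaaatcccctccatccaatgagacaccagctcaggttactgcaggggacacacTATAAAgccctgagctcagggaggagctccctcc
Both strands were searched. CACCTG occurred 1 time, 120 to 115 bases before the start, and 17.5% of 35116 RefSeq promoters of the same length held it on either strand. TATAAA occurred 1 time, 34 to 29 bases before the start, against 10.7% of promoters with a match, and the ETS core GGAA occurred 2 times, against 92.7% of promoters. The peaks are in hg19 and this sequence is in GRCh38, so no peak was placed on it. No hg19 annotation was used, and regions are therefore assigned to a window and not to a promoter, intron or gene. In the RefSeq gene order the nearest protein-coding genes included CDH3 and TANGO6 beside CDH1, DPY19L4 and VIRMA beside ESRP1, NCALD beside GRHL2 and RNPEP beside ELF3, and some regions may belong to these.

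The libraries differed greatly in how many peaks they listed, and the lists must be read with that in mind. In the order siMena11a, siMena, siControl and untreated, replicate 1 listed 35472, 14678, 27304 and 34782 peaks and replicate 2 listed 2832, 1020, 5231 and 22424. Depth was read as the mean number of tags expected at a position across the genome. Replicate 1 of the groups, in that order, had 0.881, 0.725, 0.935 and 0.538, and replicate 2 had 2.54, 2.88, 2.27 and 1.09, so the shortest lists had the highest values. At that level of background, a peak needed a fold of at least 3.61 to 3.67 and a summit of 11 to 13 tags to be listed in replicate 2 of the transfected groups, and 3.72 to 4.13 and 5 to 7 tags elsewhere. The fold, deposited by the authors, divides the tags piled up at a summit by those expected locally, after adding 1 to both, and was used to describe and rank peaks within a list.

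Epithelial windows were open in every replicate 1 library and in untreated replicate 2, and nearly empty in the other replicate 2 lists. With siMena11a, 31 of the 41 regions (75.6%) were listed in replicate 1 and 0 in replicate 2. In siMena, 13 (31.7%) were listed in replicate 1 and 1 (2.44%) in replicate 2. In siControl the numbers were 29 (70.7%) and 2 (4.88%), and in untreated cells 33 (80.5%) and 24 (58.5%). Replicates of each transfected group thus differed far more than the replicate 1 libraries of different groups did, siMena excepted. The same shares over all 46665 regions were 74.6% and 5.92% in siMena11a, 30.2% and 2.14% in siMena, 56.7% and 10.9% in siControl, and 72.4% and 46.4% in untreated libraries. The count of 0 in siMena11a replicate 2 allows a share of up to 7.32%, which takes in the 5.92% of all regions. The 95% exact Clopper-Pearson interval in siControl replicate 2, 0.596% to 16.5%, takes in its 10.9%. These limits cover counting error over regions only.

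**Figure D1:**
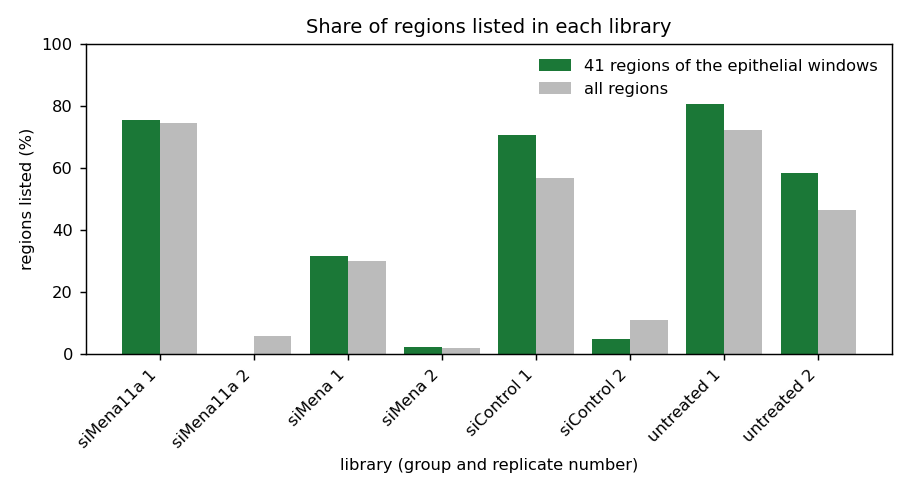
Percentage of regions listed in each library (vertical axis), for the 41 regions of the 5 epithelial windows (green) and all 46665 regions of the series (grey), with libraries on the horizontal axis. The epithelial share runs from 80.5% in untreated replicate 1 to 0 in siMena11a replicate 2. It is above the share of all regions in siControl replicate 1 (70.7% against 56.7%) and untreated replicate 2 (58.5% against 46.4%), among others. It is below that share in siMena11a replicate 2 (0 against 5.92%) and siControl replicate 2 (4.88% against 10.9%).

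No region of the 5 windows was listed in all 8 libraries, against 1.16% of all regions. None could be, since siMena11a replicate 2 listed no epithelial region, and 0 of 41 allows a share of up to 7.32%. One region, at EPCAM, was listed in 6 libraries, 10 in 5, 9 in 4, 6 in 3, 8 in 2 and 7 in a single library. At least 5 libraries listed 26.8% of the epithelial regions and 24.6% of all regions, and at least 6 listed 2.44% and 9.36%. The single-library share was 17.1%, against 31.2% of all regions. Median width was 440 bp, against 394 bp over all regions, and it was 245 bp for the regions of a single library and 644.5 bp for those of 5.

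**Figure D2:**
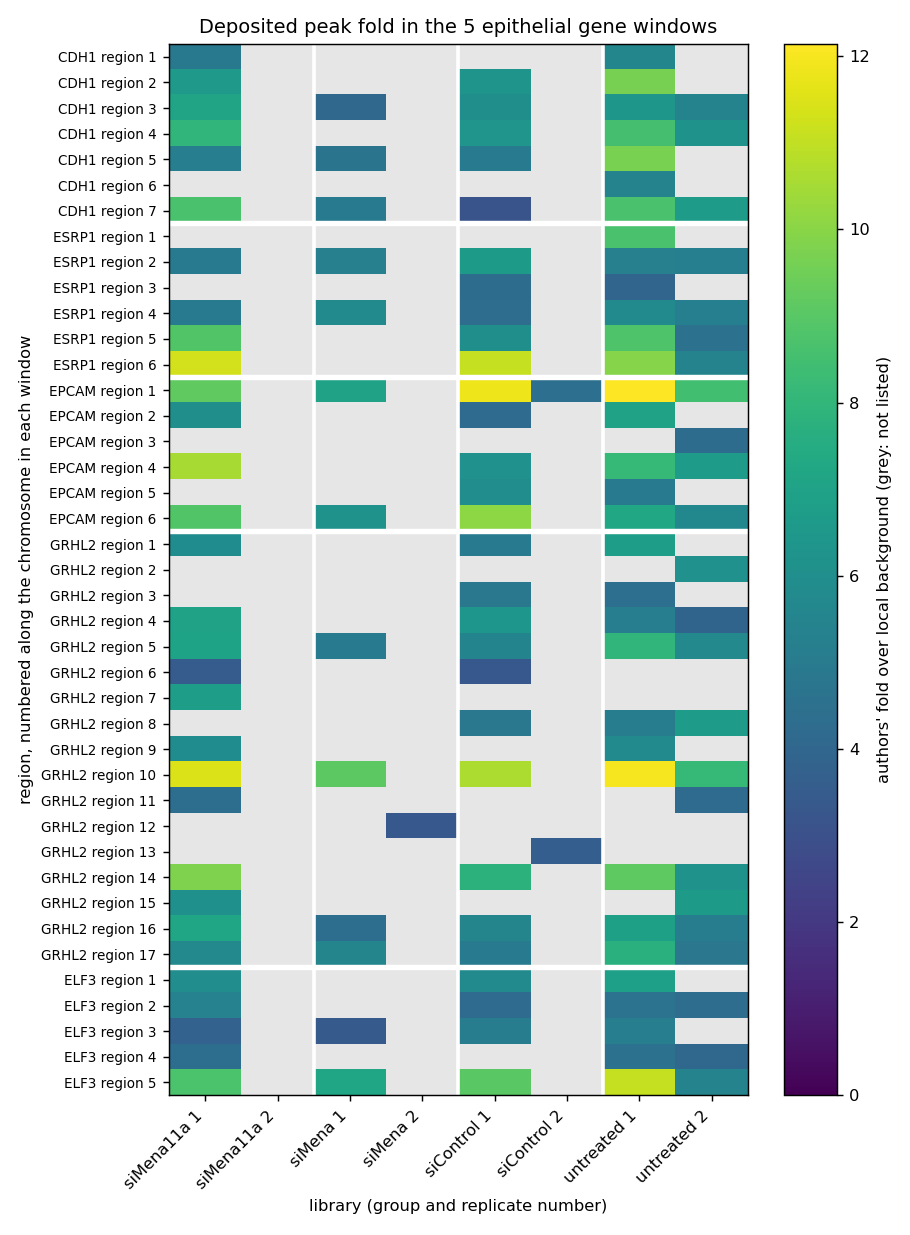
Deposited fold over local background (colour) at the 41 regions (rows, grouped by window and numbered along the chromosome) in the 8 libraries (columns), with grey for regions not listed. Rows are filled mostly in the replicate 1 columns and in untreated replicate 2, and the siMena11a replicate 2 column is empty.

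At CDH1, 7 regions lay within the window, the nearest pair 5.05 kb and the farthest neighbours 53.2 kb apart between centres. None was listed in replicate 2 of a transfected group. CDH1 region 3 (chr16:68778693-68779034, 342 bp) was listed in 5 libraries. Its fold was 7.07 in siMena11a replicate 1, 4.11 in siMena replicate 1, 6.03 in siControl replicate 1, and 6.44 and 5.42 in untreated replicates 1 and 2. Summits in the 5 libraries lay within 12 bp of each other, the smallest spread of any region listed in 4 or more libraries, and siMena replicate 1 had the lowest fold, at 11 tags.

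CDH1 region 2 (chr16:68770932-68771359) had a fold of 6.51 in siMena11a replicate 1, 6.30 in siControl replicate 1 and 9.63 in untreated replicate 1. Neither siMena library listed it, nor did untreated replicate 2, so the untreated replicates themselves disagreed. CDH1 region 4 (chr16:68790042-68790525) had 8.01 in siMena11a replicate 1, 6.33 in siControl replicate 1, and 8.54 and 6.18 in the untreated replicates. At region 4 siControl replicate 1 and untreated replicate 2 had close folds, and neither siMena library listed it. CDH1 region 5 (chr16:68812424-68813150) had its highest fold, 9.68, in untreated replicate 1, against 5.18 in siMena11a, 4.68 in siMena and 4.97 in siControl replicate 1. The siMena11a value came from a right-hand peak with its summit at 68813016, and its left-hand peak had 5.15. The other strongest summits lay between 68812585 and 68812607. Untreated replicate 1 also had a right-hand summit, at 68812993, with a fold of 6.97. Its value of 9.68 stood at the 82.3 percentile of its own list. The strongest transfected values stood between the 15.5 and 22.8 percentiles of theirs, while untreated replicate 2 did not list the region.

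The right-hand region of the CDH1 window showed how the merging of peaks shapes a call. CDH1 region 7 (chr16:68877205-68877960) had folds of 8.64 in siMena11a replicate 1, 5.00 in siMena replicate 1, 3.16 in siControl replicate 1, and 8.66 and 6.73 in the untreated replicates. The siControl value was the lowest and belonged to another place. Summits of the strongest peak lay between 68877449 and 68877478 in the other 4 libraries and at 68877945 in siControl replicate 1. The siControl peak began at 68877733 and met the siMena11a peak, which ended at 68877753, over a few bases, and untreated replicate 1 had a second summit near it, at 68877934, with a fold of 4.03. At the left-hand summit, therefore, both untreated libraries and replicate 1 of siMena11a and of siMena listed a peak and neither siControl library did. The remaining CDH1 regions were narrow, with region 1 listed in siMena11a and untreated replicate 1 at folds of 4.91 and 5.56 and region 6 in untreated replicate 1 alone at 5.43.

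At ESRP1, the splicing regulator, 6 regions were found, and 2, 3 and 4 clustered within a few kb. ESRP1 region 2 (chr8:95651138-95651847) had folds of 4.97 in siMena11a replicate 1, 5.28 in siMena replicate 1, 6.63 in siControl replicate 1, and 5.30 and 5.26 in the untreated replicates. ESRP1 region 4 (chr8:95652892-95653458) had folds of 4.94, 5.81 and 4.33 in replicate 1 of siMena11a, siMena and siControl, and 5.78 and 5.23 in the untreated replicates. Both were listed in 5 libraries, replicate 1 of each transfected group and both untreated replicates, with little spread between them. At region 4 the untreated replicate 2 value came from a summit at 95653311. Its other summit there, at 95653148, had a fold of 4.36. Of the 13 regions listed in all 4 replicate 1 libraries, siMena exceeded siMena11a in fold at regions 2 and 4 alone. At region 4 siMena was the highest of all libraries. Over all 12873 regions with that listing, the median fold was 6.20 in siMena and 8.54 in siMena11a replicate 1. The share of those regions with the higher fold in siMena was not counted. Summits carried 34 tags in siMena11a replicate 1, 24 in siMena replicate 1, 24 in siControl replicate 1, and 34 and 24 in the untreated replicates at region 4, so the rank by tags differed from the rank by fold. Local background there was 6.08 tags in siMena11a and 3.30 tags in siMena replicate 1. At region 2 the summits carried 34 tags in siMena11a and 22 in siMena replicate 1, at local backgrounds of 6.04 and 3.36.

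The strongest ESRP1 region lay farther right. ESRP1 region 6 (chr8:95731652-95732506) had folds of 11.3 in siMena11a replicate 1, 11.07 in siControl replicate 1, and 9.93 and 5.45 in the untreated replicates. In siMena11a and siControl replicate 1 it ranked at the 94.8 and 95.2 percentiles, yet neither siMena library listed it. ESRP1 region 5 (chr8:95669250-95669849) had 8.85 in siMena11a replicate 1, 6.03 in siControl replicate 1, and 8.79 and 4.51 in the untreated replicates, again with no siMena library. At both, the untreated replicates differed from each other by more than siMena11a replicate 1 differed from siControl replicate 1. Region 3 (chr8:95652630-95652876) was weak, with folds of 4.27 in siControl and 3.97 in untreated replicate 1. Region 1 (chr8:95635633-95635877) was listed in untreated replicate 1 alone, at a fold of 8.64 from 13 tags.

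EPCAM held the most widely listed region of the set. EPCAM region 1 (chr2:47566954-47567589) had folds of 9.17 in siMena11a replicate 1, 7.0 in siMena replicate 1, 11.81 and 4.42 in siControl replicates 1 and 2, and 12.14 and 8.45 in untreated replicates 1 and 2. Its summits, of 20 to 49 tags, lay within 50 bp of each other in the 6 libraries. The value in siControl replicate 2 was the lowest, at the 34.0 percentile of its list, and that in siControl replicate 1 stood at the 97.1 percentile. The siControl replicates therefore spanned almost the whole range of the region. The siMena11a and siMena values lay inside it but were of replicate 1 alone. Fold was also lower in siControl replicate 2 at the regions listed in all 8 libraries, with a median of 6.68 against 10.5 in siControl replicate 1.

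EPCAM region 4 (chr2:47596058-47597221), at 1164 bp the second widest of the set, had folds of 10.53 in siMena11a replicate 1, 6.12 in siControl replicate 1, and 8.13 and 6.73 in the untreated replicates. It was highest in siMena11a replicate 1, where it ranked at the 91.5 percentile, against the 43.9 percentile in siControl replicate 1. EPCAM region 6 (chr2:47629990-47630725) had the opposite order of siMena11a and siControl, with 8.86 in siMena11a replicate 1, 6.25 in siMena replicate 1, 10.06 in siControl replicate 1, and 7.21 and 5.68 in the untreated replicates. EPCAM region 2 (chr2:47572119-47572558) had 6.04, 4.26 and 6.98 in siMena11a, siControl and untreated replicate 1. EPCAM region 5 (chr2:47615383-47615732) was listed in siControl and untreated replicate 1 at 5.93 and 5.00, and region 3 in untreated replicate 2 alone at 4.30. Within 1 window, then, adjacent regions ordered the same libraries differently.

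**Figure D3:**
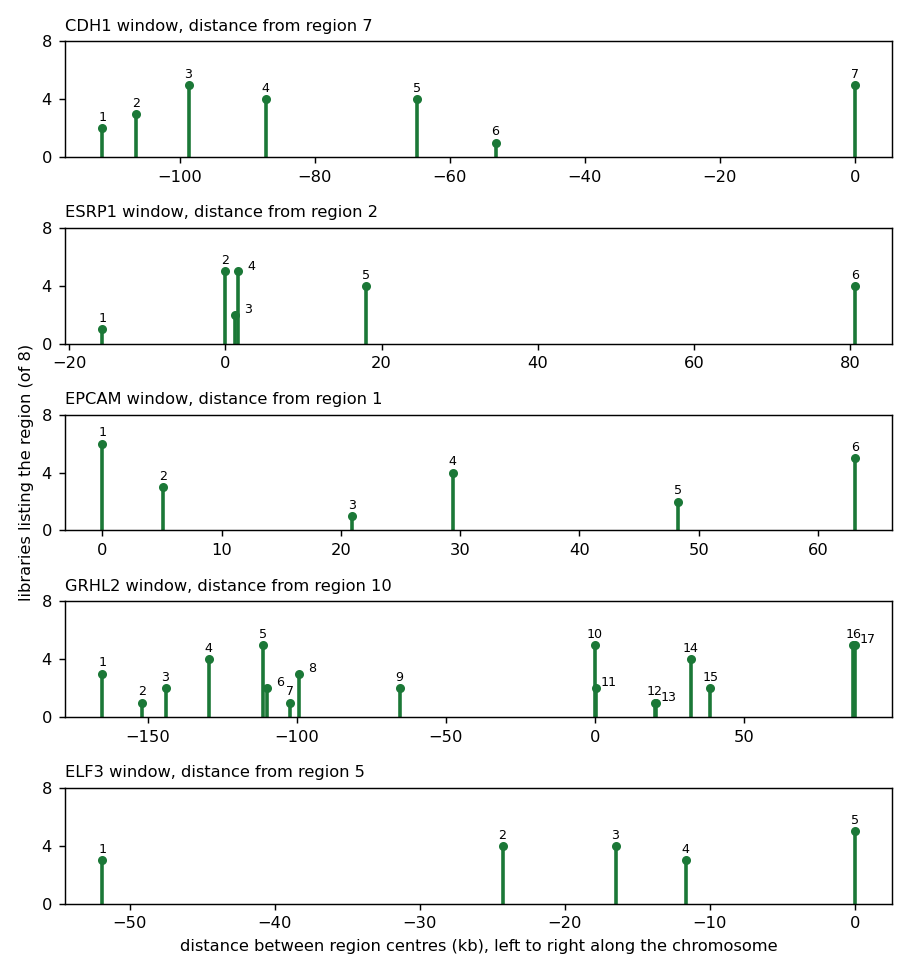
Number of libraries, of 8, that listed each region (height) against its distance in kb from the most widely listed region of the window (horizontal axis), for the 5 windows, with region numbers above or beside the points. EPCAM region 1 reaches 6 libraries, 10 regions reach 5, and the GRHL2 window has its widely listed regions in separate places.

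GRHL2, the grainyhead factor, had the longest window, 260 kb, and the most regions, 17, or 6.54 per 100 kb, within the range of 4.62 (ESRP1) to 8.33 (ELF3) of the other windows. GRHL2 region 10 (chr8:102615782-102616296) had the highest mean fold over its libraries of the whole set. Its fold was 11.52 in siMena11a replicate 1, 9.09 in siMena replicate 1, 10.66 in siControl replicate 1, and 11.96 and 8.14 in the untreated replicates. It ranked between the 92.5 and 95.5 percentiles of the 4 replicate 1 lists and at the 80.5 percentile of untreated replicate 2, with summits within 34 bp. Replicate 2 of siMena11a, siMena and siControl did not list it.

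GRHL2 region 5 (chr8:102504242-102505083) had folds of 7.06 in siMena11a replicate 1, 5.05 in siMena replicate 1, 5.46 in siControl replicate 1, and 8.0 and 5.70 in the untreated replicates. All 5 lists resolved it into 2 summits, and the value of untreated replicate 2 came from the right summit while the others came from the left. GRHL2 region 16 (chr8:102702334-102702912) had 7.14, 4.40 and 5.53 in replicate 1 of siMena11a, siMena and siControl, and 6.91 and 5.08 in the untreated replicates. GRHL2 region 17 (chr8:102703005-102703390), its direct neighbour, had 5.72, 5.52 and 4.94 in the same 3 libraries and 7.71 and 4.82 in the untreated replicates. At region 17 siMena11a replicate 1 lay between the untreated replicates, and at region 16 above both. At region 5, siMena11a replicate 1 lay between untreated replicates 1 and 2 at the left summit (7.06, against 8.0 and 4.62). At the right summit it lay above both (6.09, against 5.56 and 5.70). GRHL2 region 14 (chr8:102647886-102648327) had 9.80 in siMena11a replicate 1, 7.82 in siControl replicate 1, and 9.13 and 6.25 in the untreated replicates, and was missing from both siMena lists.

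Narrow GRHL2 regions made up much of the rest. Of the 17, 4 were listed in 1 library, 5 in 2 and 2 in 3. Among the single-library regions were the sole listing of siMena replicate 2 in the 5 windows (region 12, chr8:102635920-102636292, fold 3.36) and a siControl replicate 2 listing (region 13, chr8:102636536-102636735, fold 3.62). These neighbours were weak, with 18 and 14 tags at the summit, and no replicate 1 library listed either. The others were region 7 in siMena11a replicate 1 (fold 6.78) and region 2 in untreated replicate 2 (fold 6.14).

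ELF3 had the shortest window, 60 kb, and 5 regions, each listed in at least 3 libraries. ELF3 region 5 (chr1:202003600-202004373) was the strongest, with folds of 8.68 in siMena11a replicate 1, 7.14 in siMena replicate 1, 9.04 in siControl replicate 1, and 11.07 and 5.44 in the untreated replicates. The untreated replicates were the highest and the lowest, and the 3 transfected libraries that listed the region lay between them. ELF3 region 2 (chr1:201979408-201979997) had 5.36 in siMena11a replicate 1, 4.25 in siControl replicate 1, and 4.62 and 4.34 in the untreated replicates. ELF3 region 1 (chr1:201951634-201952577) was listed in replicate 1 of siMena11a, siControl and untreated cells, at 5.94, 5.76 and 6.84.

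ELF3 region 3 (chr1:201986862-201988121) was, at 1260 bp, the widest region of the set and was cut differently by each list. Untreated replicate 1 listed it as a single peak with 4 summits, whereas siMena replicate 1 listed only a short peak at its left end, with a fold of 3.44. Folds were 3.82 in siMena11a, 5.08 in siControl and 5.19 in untreated replicate 1. The strongest summits were 1021 bp apart at most, so these values do not describe one site. Over the 20 regions listed in 4 or more libraries, the strongest summits lay within 100 bp of each other in 11 and farther apart in 9, with a median span of 89.5 bp.

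**Figure D4:**
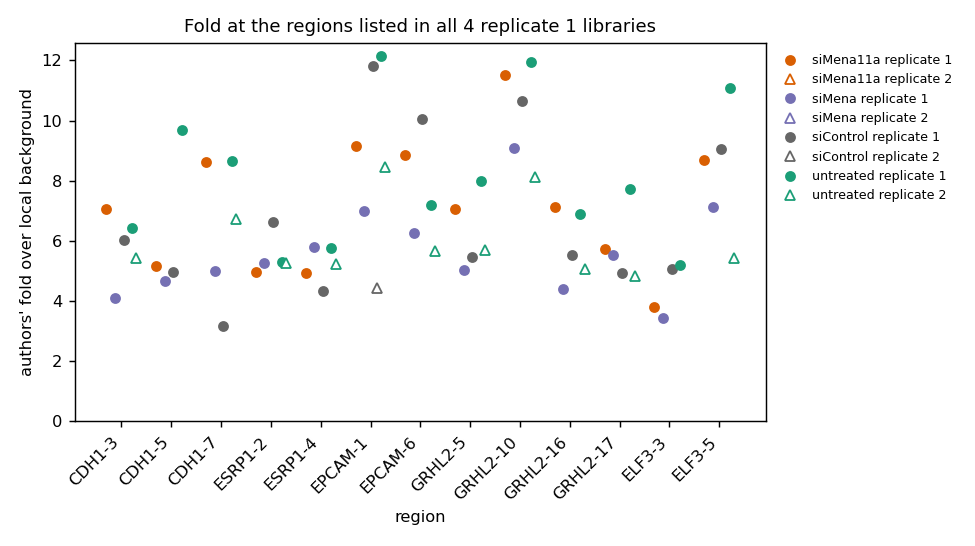
Deposited fold over local background (vertical axis) at the 13 regions listed in all 4 replicate 1 libraries (horizontal axis), with filled circles for replicate 1, open triangles for replicate 2 and colours for the groups. Replicate 2 points are those of untreated cells at 11 regions and of siControl at EPCAM region 1. siMena replicate 1 is the lowest of the 4 circles at 9 of the 13. Over all 12873 regions with that listing, the median fold was also lowest in siMena replicate 1 (6.20, against 7.75 to 9.05). The share of those regions where siMena replicate 1 was the lowest was not counted. Circles of the same region can come from different summits, up to 1021 bp apart at ELF3 region 3.

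Silencing of the 11a isoform was set against the non-targeting pool to find regions that opened or closed with it. A region was gained if both libraries of the first group and neither of the second listed it, and lost in the reverse case. With siMena11a against siControl, 0 of the 41 epithelial regions were gained and 0 were lost, against 0.0279% and 0.0557% of all regions. No epithelial region was listed in all 4 libraries, against 4.43% of all regions, and 5 were listed in none. Since siMena11a replicate 2 listed no epithelial region, a gain could not have been called here, and a loss required a listing in siControl replicate 2, which only EPCAM region 1 and GRHL2 region 13 had. No exact two-sided p below 0.333 is possible with 2 libraries against 2, and no region was tested.

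Replicate 1 alone gave 25 regions listed in both siMena11a and siControl (61.0%, against 50.4% of all regions). Another 6 were in siMena11a only (14.6%, against 24.2% of all regions) and 4 in siControl only (9.76%, against 6.25%). Those of siMena11a only were CDH1 region 1, GRHL2 regions 7, 9, 11 and 15 and ELF3 region 4, with folds from 4.37 to 6.78. Those of siControl only were ESRP1 region 3, EPCAM region 5 and GRHL2 regions 3 and 8, with folds from 4.27 to 5.93. Each of the 10 was listed in at most 3 libraries. Within replicate 2, 0 regions were in siMena11a only, against 1.03% of all regions, and 2 (4.88%) in siControl only, against 5.97%.

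Silencing of hMENA as a whole was set against the same control. With siMena against siControl, 0 epithelial regions were gained and 0 lost, against 0.00214% and 1.03% of all regions. No epithelial region was in both siMena libraries, so no gain could be called, and only EPCAM region 1 was in both siControl libraries and could have been lost. In replicate 1, siMena listed 13 of the 29 regions of siControl and none that siControl lacked, the latter against 1.81% of all regions. The 16 regions missing in siMena (39.0%, against 28.2% of all regions) were 2 at CDH1, 3 at ESRP1, 3 at EPCAM, 6 at GRHL2 and 2 at ELF3. They included ESRP1 region 6, where siControl replicate 1 had a fold of 11.07, and GRHL2 region 14, where it had 7.82. Of the regions in siControl replicate 1, 44.8% of the epithelial ones and 50.2% of all were also in siMena replicate 1, whose list had 14678 peaks against 27304. Length of the list moved with this count, and its part in the result was not tested. In replicate 2, siMena listed 1 region that siControl lacked (2.44%, against 0.326% of all regions) and lacked 2 (4.88%, against 9.06%).

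Transfection itself was the question in the comparison of siControl with untreated cells, in which 0 epithelial regions were gained, against 0.12% of all regions, and 1 was lost (2.44%, exact 95% interval 0.0617% to 12.9%), against 3.65% of all regions. The lost region was ELF3 region 4 (chr1:201992144-201992519), with folds of 4.55 and 4.05 in the untreated replicates and no peak in either siControl library. Its untreated folds ranked at the 7.5 and 6.1 percentiles of their lists. siMena11a replicate 1, a transfected library, also listed it, at a fold of 4.39 from 19 tags, and both siMena libraries lacked it.

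Within replicate 1, siControl and untreated cells shared 28 epithelial regions (68.3%, against 49.7% of all regions). GRHL2 region 6 was in siControl only (2.44%, against 6.93% of all regions), and 5 regions (12.2%, against 22.7%) were in untreated cells only, namely CDH1 regions 1 and 6, ESRP1 region 1, GRHL2 region 9 and ELF3 region 4. Within replicate 2, 1 region was shared (2.44%, against 9.8% of all regions). There, 1 was in siControl only (2.44%, against 1.07% of all regions) and 23 were in untreated cells only (56.1%, against 36.6%). The shared one was EPCAM region 1. The lists of this pair had 5231 and 22424 peaks, and the part of that difference in the result was not tested.

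The isoform-specific and the overall silencing were compared to ask whether they differ. With siMena11a against siMena, 0 epithelial regions were gained and 0 lost, against 0.24% and 0.00643% of all regions. Neither call could have been made, since siMena11a replicate 2 listed no epithelial region and the only one in siMena replicate 2, GRHL2 region 12, was not in siMena replicate 1, so these counts say nothing on whether the groups differ. In replicate 1, siMena11a listed all 13 regions of siMena and 18 more (43.9%, against 45.5% of all regions), and siMena had none that siMena11a lacked, against 1.07% of all regions. The 18 were 3 at CDH1, 2 at ESRP1, 2 at EPCAM, 8 at GRHL2 and 3 at ELF3. In replicate 2, siMena11a had no region and siMena the 1 weak GRHL2 region, against 4.18% of all regions in siMena11a only and 0.39% in siMena only.

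The 13 regions listed in all 4 replicate 1 libraries were followed into replicate 2. They were 3 at CDH1, 2 at ESRP1, 2 at EPCAM, 4 at GRHL2 and 2 at ELF3. Of the 13, 0 were also in siMena11a replicate 2, 0 in siMena replicate 2, 1 (7.69%) in siControl replicate 2 and 11 (84.6%) in untreated replicate 2. Of all 12873 regions with that listing, 17.4%, 4.72%, 31.1% and 84.2% were. The 0 of 13 allows a share of up to 23.1%, and the exact 95% interval for siControl replicate 2 was 0.195% to 36.0%, so a difference from all regions was not detectable with 13. Median fold of the 13 was 7.07 in siMena11a, 5.28 in siMena, 5.53 in siControl and 7.71 in untreated replicate 1, below the medians of 8.54, 6.20, 7.75 and 9.05 over all 12873. Their folds ranged from 3.82 to 11.5 in siMena11a, 3.44 to 9.09 in siMena, 3.16 to 11.8 in siControl and 5.19 to 12.1 in untreated replicate 1. The lowest siControl value was at CDH1 region 7 and the other lowest values at ELF3 region 3. The strongest summits there lay up to 496 and 1021 bp apart, so these regions count as listed without being open at one site in all 4 libraries. Over every region a list held, the medians were closer, at 6.51 for epithelial and 6.62 for all regions in siMena11a, 5.28 and 6.11 in siMena, 5.76 and 6.49 in siControl, and 6.91 and 6.99 in untreated replicate 1.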

How the data were processed

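The 8 deposited files are ATAC-seq peak lists, 1 per library. Whether the authors also pooled replicates cannot be told from them. Per the submitters' processing notes, MACS2 2.2.5, Bowtie2 2.3.4.2, FastQC 0.11.5 and SAMtools 1.7 were used with build hg19; trimming, duplicate filters and any transposase shift are not given in the sources used here. The deposited score is 10 times the −log10 q, rounded down, in at least 99.98% of rows. The authors' fold is a ratio of summit pileup to local background, and the −log10 p and −log10 q are the authors' values; each list ended just above a −log10 q of 2.00.

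Several summits of 1 interval counted as 1 peak, and listing required a peak of the library to share 1 bp or more with the region. A region's fold is that of its strongest summit. Whole tags and local background were recovered from the deposited fold and −log10 p, within 0.001, for 100.0% of rows in every list. The most frequent local background served as the genome-wide background. Percentiles rank a region's fold among all peaks of its own list. No region was tested. Intervals are exact Clopper-Pearson, and the limit given beside a count of 0 is 3 counts over the number of regions. Calls and recovery were tested on simulated data. Windows, members and the gene list were chosen with earlier results of these data known. Regions are the union of their peaks, so width grows with the number of libraries. The naming rule took, per window, up to 5 regions listed in the most libraries (ties by mean fold), the region with the highest fold, and every gained or lost region; other regions named were chosen after their values were seen. A list of other epithelial genes needed an hg19 annotation and was not analysed here. Computing used SciPy 1.17.1, pandas 2.3.3 and numpy 2.4.6 in Python 3.11.15, with plots from matplotlib 3.10.9.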

Additional observations from a re-analysis of the deposited data

How the results depend on the processing

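With peaks merged within 200 bp (38 epithelial regions) or windows widened by 20 kb on each side (49), the calls of the 4 comparisons, the regions listed per library and the regions in at least 5 or all 8 libraries stayed within 1.5 times the values above. When each list was held to the 1020 peaks with the lowest q, 2 epithelial regions were left. siMena replicate 2, siControl replicate 1 and untreated replicate 1 then listed 1 each and the other 5 libraries 0, none was in at least 5, and the siControl against untreated loss fell to 0. With a −log10 q of at least 5, siMena replicate 2 listed 0 and siControl replicate 2 listed 1. Under a rule that peaks span at least 50% of a region, siMena replicate 1 listed 8, and 7 regions were in at least 5 libraries. Under the same rule 2 were lost in siControl against untreated cells, ELF3 region 4 and EPCAM region 6. At EPCAM region 6 siControl replicate 1 still had a peak, with a fold of 10.06, against 7.21 and 5.68 in the untreated replicates. That peak spanned less than 50% of the region. The share of all regions lost under this rule was not counted.

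No paired analysis was possible because the calls come from no test, but listing was compared with the replicate number as a block. Within replicate 1, the gained and lost regions were 6 and 4 for siMena11a against siControl, 0 and 16 with siMena against siControl, 1 and 5 with siControl against untreated, and 18 and 0 for siMena11a against siMena. Within replicate 2 they were 0 and 2, 1 and 2, 1 and 23, and 0 and 1. Leaving out 1 library gave 0 to 6 gained and 0 to 4 lost regions for siMena11a against siControl, 0 to 1 and 0 to 16 with siMena against siControl, 0 to 1 and 1 to 19 with siControl against untreated, and 0 to 18 and 0 to 1 for siMena11a against siMena. The highest counts came without siMena11a replicate 2 (6 and 18 gained), without siControl replicate 2 (4 and 16 lost) and without siControl replicate 1 (19 lost). The share of all regions called with 1 library left out was not counted. These counts therefore cannot be read as particular to the epithelial regions. Regions in at least 5 libraries numbered 1 without any single replicate 1 library or untreated replicate 2, and 11 without any other; 0 were in all remaining libraries. The cause of these changes was not tested, beyond that fewer libraries must agree or a list carries fewer peaks.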
